A study of Mus musculus with 31 samples.

Results

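Astrocyte genes of the neonatal mouse forebrain were followed in 2 sets fixed by name: 6 genes of astrocyte reactivity (Gfap, Vim, Nes, Serpina3n, Lcn2 and Cd44) and 4 genes of astrocyte identity (Aldh1l1, Aldoc, S100b and Gja1). They are 10 of the 19902 named genes on the arrays, each read from the brightest of its probes. The 31 two-color arrays compared NMRI mouse pups treated at P5 and killed 3, 6, 12 or 24 h later. The methods count these hours from injection in Experiment 1 and from the end of hypoxia in Experiments 2 and 3. Each channel held RNA pooled from 6 hemispheres of 3 males and 3 females. Experiment 1 set mice given 600 mg/kg MgSO4 (Cy5) against control mice (Cy3) with 7 arrays at 6 h and 4 arrays at each of the other times (3, 12 and 24 h). Experiment 3 set hypoxia-ischemia (HI, ligation of the right carotid artery followed by hypoxia; Cy5) against control (Cy3) on 3 arrays at 3 h and 3 arrays at 12 h. Experiment 2 held mice given MgSO4 before HI (MgHI) in 1 channel, also on 3 arrays at 3 h and 3 at 12 h. Its sources disagree: for the other channel the methods name mice given PBS before HI, while titles and Cy3 labels name uninjured mice given MgSO4, and MgHI is Cy5 in labels and methods but Cy3 in figures. Its results are therefore reported per channel, with neither channel named. A label of the HI samples in Experiment 3 names MgSO4 as their treatment, while titles and source do not, and HI alone was assumed here. The labels give a subcutaneous route and PBS controls, the methods an intraperitoneal route and untreated controls.

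The dyes were never swapped, so any preference of a probe for a dye is part of its ratio. Each pool counts as 1 replicate, and p-values measure the spread between these pools. The share of spots well above background lay between 45.2% and 70.2% over the channels. At 6 h, replicates 3 and 7 of Experiment 1 correlated with each other (r = 0.56 over all probes) and down to r = -0.42 with the rest of their group, so the 6 h values have no settled direction. Both were on slide 4, with 49.9% and 45.2% of spots well above background in Cy3. Replicates 2 and 6, which correlated at r = 0.86, shared slide 3. All experiments used forebrain tissue. The 9 neuron markers and the 21 other astrocyte identity genes listed were above background on every HI array, which does not tell brain regions apart. In such bulk tissue fewer cells of a type and less RNA per cell cannot be told apart.

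Astrocytes supply neurons with metabolites, clear glutamate and potassium, and are joined by gap junctions. After injury they become reactive: they enlarge, build more intermediate filaments and secrete proteins of the acute-phase kind. At P5 the forebrain is still making astrocytes from radial glia, which carry vimentin and nestin themselves. Cytokines of the interleukin-6 family acting through the transcription factor STAT3 are a known route to Gfap transcription.

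The promoters of 5 of the 10 genes are shown because Gfap, Vim, Serpina3n and Lcn2 had the highest HI ratios at 12 h, and Gja1 the one nearest to 0. Each sequence runs from 250 bases before to 50 bases after the start of the gene (RefSeq, GRCm38.p6, strand of the gene). Capitals mark matches to TTCNNNGAA (the STAT motif), to TGANTCA (AP-1) or to the NF-kB motif.
Gfap, chr11:102897151-102897450, minus strand: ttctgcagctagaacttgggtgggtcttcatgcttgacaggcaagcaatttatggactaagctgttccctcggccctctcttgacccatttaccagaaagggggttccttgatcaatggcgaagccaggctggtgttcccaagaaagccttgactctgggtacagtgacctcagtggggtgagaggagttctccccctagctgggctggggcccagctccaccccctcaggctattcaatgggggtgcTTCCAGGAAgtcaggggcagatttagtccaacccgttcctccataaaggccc
Vim, chr2:13574061-13574360, plus strand: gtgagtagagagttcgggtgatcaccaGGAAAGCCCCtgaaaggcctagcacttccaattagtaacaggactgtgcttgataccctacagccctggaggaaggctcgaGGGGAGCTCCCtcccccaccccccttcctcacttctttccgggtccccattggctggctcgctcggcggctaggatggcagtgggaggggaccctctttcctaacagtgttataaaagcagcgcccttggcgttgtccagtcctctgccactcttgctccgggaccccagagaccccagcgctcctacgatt
Serpina3n, chr12:104406458-104406757, plus strand: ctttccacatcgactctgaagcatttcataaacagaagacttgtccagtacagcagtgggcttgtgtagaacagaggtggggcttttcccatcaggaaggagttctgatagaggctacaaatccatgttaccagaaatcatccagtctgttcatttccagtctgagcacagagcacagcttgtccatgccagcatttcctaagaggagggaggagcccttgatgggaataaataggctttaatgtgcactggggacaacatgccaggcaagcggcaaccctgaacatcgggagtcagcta
Lcn2, chr2:32387690-32387989, minus strand: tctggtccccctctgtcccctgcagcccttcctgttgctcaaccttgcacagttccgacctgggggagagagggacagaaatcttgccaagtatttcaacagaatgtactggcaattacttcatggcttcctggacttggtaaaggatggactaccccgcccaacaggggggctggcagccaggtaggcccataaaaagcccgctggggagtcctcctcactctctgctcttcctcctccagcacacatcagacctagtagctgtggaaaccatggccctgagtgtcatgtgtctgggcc
Gja1, chr10:56377050-56377349, plus strand: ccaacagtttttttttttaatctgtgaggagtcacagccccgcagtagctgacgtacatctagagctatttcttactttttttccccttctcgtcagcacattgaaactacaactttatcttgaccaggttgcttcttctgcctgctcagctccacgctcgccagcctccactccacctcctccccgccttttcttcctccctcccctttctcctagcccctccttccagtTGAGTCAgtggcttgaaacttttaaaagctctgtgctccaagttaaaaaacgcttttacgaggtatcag
The STAT motif was found in 8.3% of 32851 promoters, and among the 11 promoters of the 10 genes it was found in that of Gfap (starting 2 bases before the start of the gene) and in 1 of the 2 promoters of Aldoc. TGANTCA was found in 7.81% of all promoters and in that of Gja1, and the NF-kB motif (GGGRNNYYCC) in 8.46% and in that of Vim. There matches on the 2 strands overlap at positions -142 and -141 from the start of the gene, and another lies apart at -223. The promoters of Serpina3n and Lcn2 held none of these 3 motifs. TGACGTCA (1.79% of promoters) and the CArG motif (1.63%) matched no promoter of the 10 genes. The hypoxia response core ACGTG (19.6% of promoters) was found in Cd44 and Aldoc, and GCGTG (32.4%) in Gja1 and Aldoc. All motifs were searched on both strands, and a match describes letters only.

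At 12 h after HI the 10 genes divided only in part along the 2 sets: the identity gene Aldh1l1 (0.59) lay above the reactivity gene Cd44 (0.54). All 6 reactivity genes had ratios above 0 on all 3 arrays, and 3 of them (Gfap, Vim and Serpina3n) had mean ratios above 2.5-fold. Among the identity genes Aldh1l1 lay above 0 on 3 of 3 arrays, S100b and Aldoc below 0 on 3 of 3, and the mean of Gja1 was 0.00. None of the 10 passed the test over all probes at 12 h (limma, adjusted p under 0.05 and at least 1.5-fold), and neither did more than 0.0105% of the probes tested (2 of 18964). The lowest adjusted p among the 10 was 0.0736. At an unadjusted p under 0.05, 7 of the 10 were higher and 1 was lower, against 14.1% and 13.4% of all probes. The methods' t-test called 4 of the 10 without adjustment and 0 after it. The share of all probes that it called was not set beside these counts, so they do not describe the 10 genes alone.

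**Figure D1:**
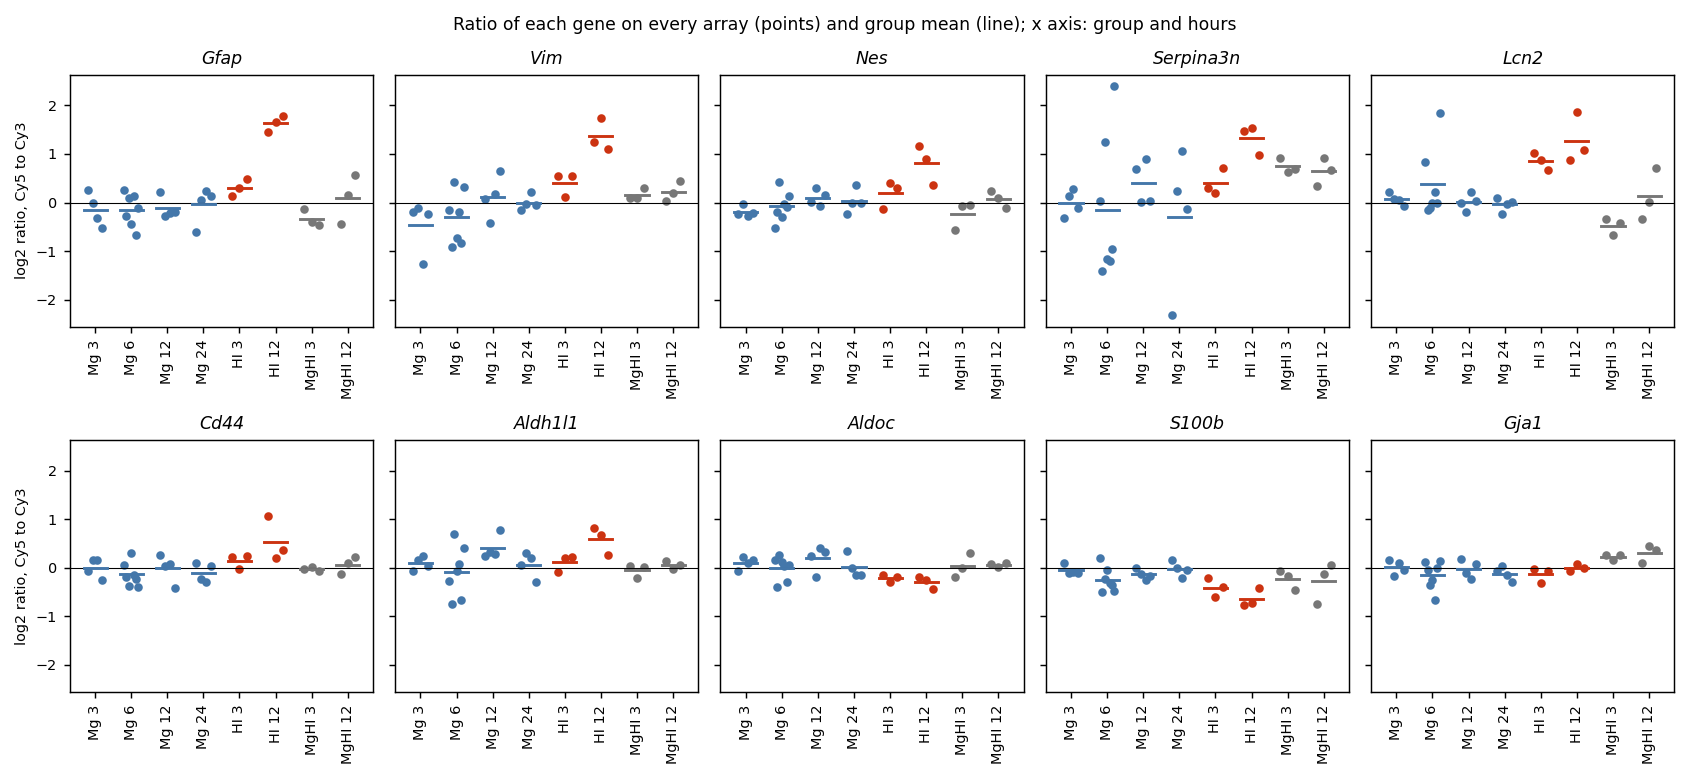
The log2 ratio of Cy5 to Cy3 (vertical axis) of each of the 10 genes on each of the 31 arrays, as points, with the group mean as a line, for the 8 groups (horizontal axis). At 12 h after HI the Gfap points lie between 1.45 and 1.78, above every other array of the series for this gene.

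Gfap encodes glial fibrillary acidic protein, the intermediate filament of astrocytes. Its log2 ratios at 12 h after HI were 1.45, 1.66 and 1.78, and at 3 h they were 0.14, 0.29 and 0.49. The highest 3 h array lay well below the lowest 12 h array, and all 6 were above 0. The mean at 12 h was 1.63 (SE 0.13, 3.10-fold, 95% interval 1.31 to 1.95, adjusted p = 0.0736), and at 3 h it was 0.31 (adjusted p = 0.0759). The other 2 Gfap probes gave 1.55 and 1.18 at 12 h (adjusted p = 0.0736 for both), and 0.00 and -0.07 at 3 h, so the 12 h value was shared by the 3 probes and the small 3 h value was not. Left out in turn, HI 12 h replicates 1, 2 and 3 gave adjusted p of 0.00126, 0.0659 and 0.00125, so that the call of Gfap depended on which array was dropped.

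Vim encodes vimentin, a filament of immature and reactive astrocytes, radial glia and cells of vessels. Its log2 ratios were 1.25, 1.74 and 1.1 at 12 h, against 0.54, 0.11 and 0.54 at 3 h. As for Gfap, the 2 times did not overlap. The share of all probes without such overlap was not counted, for this gene or for any other described here. The 12 h mean was 1.36 (SE 0.16, 2.57-fold, adjusted p = 0.0736). Nes encodes nestin, a filament of neural progenitors. It stood at 1.16, 0.90 and 0.37 at 12 h and at -0.14, 0.40 and 0.30 at 3 h, so that the lowest 12 h array fell among the 3 h arrays. Its 12 h mean was 0.81 (SE 0.18, 1.75-fold, adjusted p = 0.0876).

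Serpina3n encodes a secreted serine protease inhibitor of the acute-phase kind. Its ratios were 1.48, 1.53 and 0.97 at 12 h and 0.30, 0.19 and 0.71 at 3 h, without overlap. The 12 h mean was 1.32 (SE 0.16, 2.51-fold, adjusted p = 0.0736). Its probe was weak: it was well above background in Cy3 on 20 of 25 control samples, and in both dyes on 22 of 31 arrays. With normexp background correction and loess its 12 h mean was 0.58. Cd44 encodes the receptor for hyaluronan. One 12 h array stood apart for it, with 1.06 on replicate 1 against 0.20 and 0.36, and its mean was 0.54 (SE 0.20, adjusted p = 0.159). A second Cd44 probe gave 0.89 (adjusted p = 0.0801).

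Lcn2 encodes lipocalin-2, an iron-scavenging protein secreted by reactive astrocytes and by neutrophils. It was the 1 gene of the 10 that passed the test at 3 h, where 3.79% of the 18953 probes tested were called and 2.43% were called higher. Its log2 ratios at 3 h were 1.03, 0.87 and 0.66, all above the 3 h values of the other 9 genes except the 0.71 of Serpina3n on replicate 3. Lcn2 rose by 0.85 (SE 0.091, 1.81-fold, adjusted p = 0.0166). Without replicate 1 the value was 0.76 and the call was lost (adjusted p = 0.0518), and it was 0.95 within slide 7 and 0.66 on slide 8. With normexp background correction it was 0.45, under 1.5-fold, and without the filter on dim probes its adjusted p was 0.0637. At 12 h the arrays gave 0.87, 1.86 and 1.08, with a mean of 1.27 (SE 0.22, 2.42-fold, adjusted p = 0.0773), and 2 of the 3 lay above every 3 h array. With normexp this mean was 0.56.

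Neutrophil markers were read beside Lcn2. S100a8 and S100a9, subunits of the neutrophil protein calprotectin, rose at 3 h by 1.09 (adjusted p = 0.0125) and 0.82 (adjusted p = 0.0292). They were 2 of the 5 neutrophil markers tested of 9 listed. Mpo, Camp and Elane had 3 h values of -0.64, -0.10 and 0.13, and Ltf, Ngp, Mmp8 and Cxcr2 were not well above background. At 12 h S100a8 gave -0.98, 1.52 and 1.25, and replicate 1 was also the lowest of the 3 arrays for Lcn2, at 0.87. At 3 h the order differed: replicate 3 was the lowest for Lcn2 (0.66), the highest for S100a9 (1.08) and between the others for S100a8 (1.13). The part of neutrophil RNA in the Lcn2 values was not tested.

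The identity genes followed no common direction. Aldh1l1 encodes a folate enzyme used as a marker of astrocytes in general, and its ratios were 0.83, 0.68 and 0.26 at 12 h and -0.08, 0.20 and 0.22 at 3 h. All 12 h arrays lay above the 3 h arrays, with a 12 h mean of 0.59 (SE 0.15, 1.51-fold, adjusted p = 0.101). S100b encodes a calcium-binding protein of astrocytes. It was below 0 on all 6 HI arrays, with -0.21, -0.61 and -0.40 at 3 h and -0.76, -0.72 and -0.42 at 12 h. The 2 times overlapped, and the means were -0.41 (adjusted p = 0.0508) and -0.63 (SE 0.13, adjusted p = 0.0813).

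Aldoc encodes the brain form of the glycolytic enzyme aldolase. Its values stayed close to each other and below 0, at -0.15, -0.29 and -0.19 at 3 h and -0.18, -0.25 and -0.43 at 12 h. The means were -0.21 (adjusted p = 0.0866) and -0.28 (adjusted p = 0.203). Gja1 encodes connexin 43, the main gap junction protein of astrocytes. Its ratios were -0.02, -0.31 and -0.06 at 3 h and -0.06, 0.07 and 0.00 at 12 h, and the 95% interval of the 12 h mean ran from -0.29 to 0.29.

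**Figure D2:**
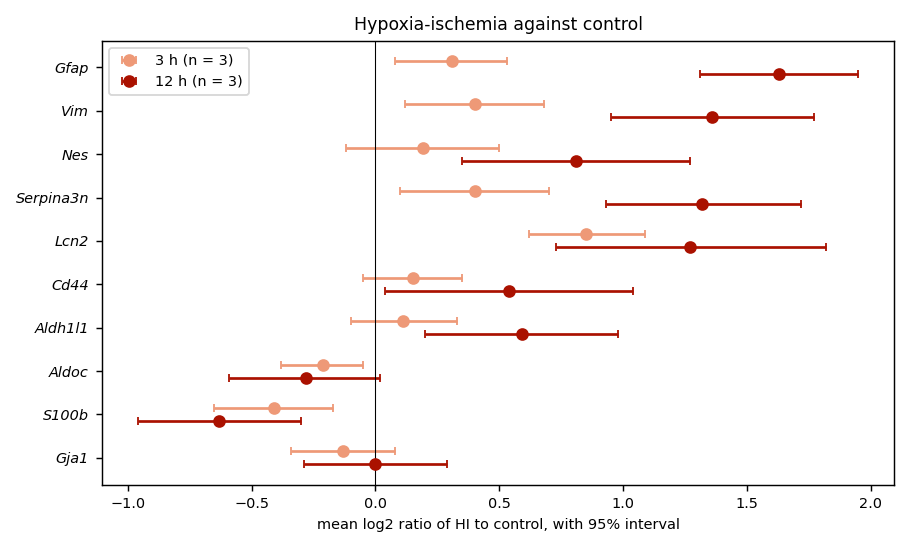
Mean log2 ratio of HI to control (horizontal axis) of each of the 10 genes (vertical axis) at 3 h and 12 h, with 95% intervals from limma, n = 3 arrays at each time. At 12 h Gfap lies at 1.63 with an interval from 1.31 to 1.95, and the interval of Gja1 spans 0.

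The difference between the 2 times was then taken gene by gene. Gfap was 1.32 higher at 12 h than at 3 h (SE 0.15, 95% interval 0.98 to 1.67, adjusted p = 0.0521), which did not pass the test, and 0.0377% of all probes did. Vim was 0.96 higher (adjusted p = 0.112) and Serpina3n 0.93 higher (adjusted p = 0.116), or 0.34 with normexp. The differences of Lcn2 (0.42, adjusted p = 0.427) and of S100b (-0.23, adjusted p = 0.47) were within the spread between arrays. At an unadjusted p under 0.05, 5 of the 10 were higher at 12 h and none was lower, where 9.87% of all probes were higher. Slide 8 held HI arrays of both times, and there Gfap differed by 0.96. Of the 6 arrays left out in turn, HI 12 h replicate 3 gave 3 of the 10 passing and replicate 1 gave 1, and the other 4 gave 0. The share of all probes passing in each of these fits was not set beside them.

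Other genes of reactivity and their cytokine pathway showed the same 2 times from another side. Of the 8 other genes listed for all reactive astrocytes, 7 were tested. Cxcl10, a chemokine, rose by 4.39 at 3 h (SE 0.27, adjusted p = 0.0112), from controls well above background on 1 of 3 arrays, and Hspb1, a small heat shock protein, by 0.75 (adjusted p = 0.0125). At 12 h no gene of this list passed the test. All 7 were higher at an unadjusted p under 0.05, against 14.1% of all probes, with a median log2 ratio of 1.38, beside 1.30 for the 6 reactivity genes and 0.00 for all genes. At 12 h Timp1, an inhibitor of matrix proteases, stood at 1.67 (adjusted p = 0.0678), and S1pr3, a receptor for sphingosine 1-phosphate, at 1.5 (adjusted p = 0.0736). Both were named after their values were seen.

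The cytokine and STAT3 list held 16 genes, of which 13 were tested. Socs3, the feedback inhibitor of this pathway, rose by 1.71 at 3 h (SE 0.083, adjusted p = 0.00596), and Il6ra, a receptor chain for interleukin-6, rose by 0.68 (adjusted p = 0.0279). The median of the list was 0.04 at 3 h and 0.43 at 12 h. At 12 h none passed the test, while 6 were higher and 1 was lower at an unadjusted p under 0.05, against 14.1% and 13.4% of all probes. Socs3 was at 0.61 at 12 h (adjusted p = 0.0901). Stat3 itself, named after its value was seen, was at 0.76 (adjusted p = 0.0773).

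Reactive genes that earlier work listed after ischemia moved in both directions at 3 h. Of 8 tested, Cd14, a receptor for bacterial lipopolysaccharide, rose by 1.14 (adjusted p = 0.013), Emp1, a membrane protein, rose by 0.87 (adjusted p = 0.039) and Sphk1, a sphingosine kinase, fell by 1.54 (adjusted p = 0.0125). None of the 10 tested genes of the list made after lipopolysaccharide passed at 3 h. From 3 h to 12 h Gbp2, an interferon-induced GTPase of that list, rose by 2.19 (adjusted p = 0.0445).

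The identity set was extended by 21 further genes, such as transporters and channels of astrocytes. None passed the test at 3 h or 12 h. At 12 h, 8 of the 21 were higher at an unadjusted p under 0.05 and none was lower, against 14.1% and 13.4% of all probes, with a median of 0.24, beside -0.14 for the 4 identity genes. Of the 9 other intermediate filament genes, Lmna, the nuclear lamin A, rose by 0.92 at 3 h (adjusted p = 0.0149).

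Markers of other cell types were read beside these lists. At 12 h the 10 tested microglia markers had a median of -0.08, the 9 neuron markers 0.25 and the 10 oligodendrocyte markers 0.30. The 5 choroid plexus markers had a median of 0.47, and their mean level was 0.03 to 0.68 in Cy5 against -0.19 to -0.11 in Cy3. The medians of the radial glia, endothelial, neutrophil, blood and meningeal markers were 0.00, 0.13, 0.13, 0.24 and 0.23. No marker of these lists passed the test at 12 h. Mbp, a protein of myelin, rose by 0.61 at 3 h (adjusted p = 0.0295). The part of a shift in tissue composition in the 12 h values was not tested.

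**Figure D3:**
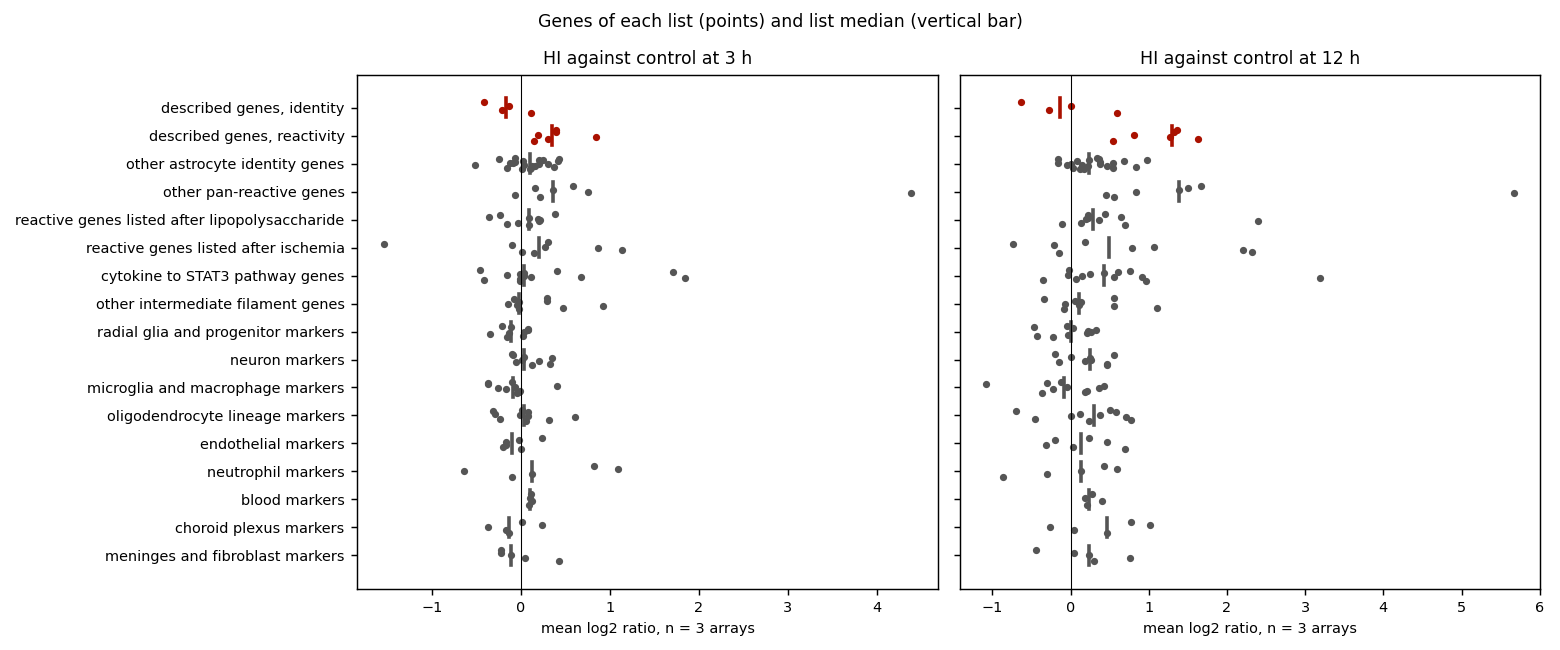
Mean log2 ratio of HI to control (horizontal axis) of every tested gene of each list (points, vertical axis) with the list median as a vertical bar, at 3 h and 12 h, n = 3 arrays at each time. At 12 h the medians of the reactivity genes (1.30) and of the other genes listed for all reactive astrocytes (1.38) lie to the right of the other lists.

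MgSO4 given without HI left the 10 genes without a called change at any time. None passed the test at 3, 6, 12 or 24 h, where 0%, 0.0283%, 0% and 0.00554% of all probes did. At an unadjusted p under 0.05 the counts were 0, 1, 1 and 0 of the 10, against 9.03%, 13.2%, 15.7% and 11.1% of all probes. The lowest adjusted p was 0.304, for Aldh1l1 at 12 h, which stood at 0.24, 0.33, 0.29 and 0.77 on the 4 arrays. All 4 were above 0, with a mean of 0.41 (SE 0.13, 95% interval 0.09 to 0.72). No gene of the 15 other lists was called at any of these times either.

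Gfap varied around 0 after MgSO4. Its ratios were 0.25, 0.00, -0.32 and -0.53 at 3 h, and 0.21, -0.27, -0.22 and -0.19 at 12 h. At 24 h they were -0.60, 0.06, 0.24 and 0.14. The intervals of the means were -0.49 to 0.19, -0.42 to 0.19 and -0.40 to 0.32. At each of these times values of both signs occurred, and no array of Experiment 1 reached 0.49, the highest 3 h value after HI.

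Vim was below 0 on all 4 arrays at 3 h, with -0.19, -0.11, -1.27 and -0.24. The mean of -0.45 (adjusted p = 0.559) rested on replicate 3, where the Vim spot was not well above background, although Vim was so on the other 30 arrays. Serpina3n spread widely at 6 h and 24 h after MgSO4. At 24 h its ratios were -2.32, 0.24, 1.06 and -0.14, and replicate 3 was the 1 array of the 4 where both dyes were well above background.

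At 6 h Serpina3n ranged from -1.42 to 2.40 with a median of -0.95, and the 2 highest of the 7 values, 1.25 and 2.40, were those of replicates 3 and 7. On both of these arrays Cy3 was not well above background for it, and on replicates 2, 4 and 5 Cy5 was not. Its mean was -0.15 (SE 0.46, adjusted p = 0.912), or 0.15 with the sign turned. With replicates 3 and 7 left out together it was -0.94 (SE 0.20, adjusted p = 0.0218). Vim ranged from -0.92 to 0.42 and was also highest on replicates 3 and 7. Lcn2 ranged from -0.16 to 1.85, with its highest value on replicate 7 and a mean of 0.37 (adjusted p = 0.52). On replicate 7 its Cy3 signal was not well above background, and without that array the mean was 0.13. With the sign turned these 2 means have the opposite direction. S100b was below 0 on 6 of 7 arrays at 6 h, with a mean of -0.24 (adjusted p = 0.37).

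HI was then set against MgSO4 at the same number of hours, which takes out a dye preference that both share. The hours run from the end of hypoxia for HI and from injection for MgSO4. At 3 h Lcn2 passed the test, with 1.03, 0.87 and 0.66 after HI against 0.22, 0.08, 0.06 and -0.07 after MgSO4. The groups did not overlap, and the difference was 0.78 (SE 0.12, 1.72-fold, adjusted p = 0.0353), where 0.695% of all probes were called. With any 1 array left out the value lay between 0.69 and 0.88. The call held without Mg 3 h replicate 1 and was lost without each of the other 6 arrays in turn, with adjusted p from 0.0625 to 0.157. It was also lost with normexp (0.41), without the filter on dim probes (adjusted p = 0.0914) and in 1 fit over the 8 groups (adjusted p = 0.532).

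At 12 h Gfap passed the test, with 1.45, 1.66 and 1.78 after HI against 0.21, -0.27, -0.22 and -0.19 after MgSO4. The difference was 1.75 (SE 0.17, 3.36-fold, 95% interval 1.35 to 2.14, adjusted p = 0.0198), where 0.0452% of all probes were called, and the groups lay far apart. The other 2 Gfap probes differed by 1.49 (adjusted p = 0.236) and 0.97 (adjusted p = 0.26). The value stayed between 1.67 and 1.86 with any 1 array left out. The call was lost without HI 12 h replicate 2 or 3 and without Mg 12 h replicate 2, 3 or 4. The HI and the MgSO4 arrays were on different slides and scan days, and with scan day as a random block the adjusted p was 0.0966. It was 0.0627 without the filter on dim probes. Lcn2 differed by 1.27 (adjusted p = 0.214; 0.54 with normexp), Vim by 1.24 (adjusted p = 0.228) and S100b by -0.50 (adjusted p = 0.275).

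Of the list genes, Cd14 (1.34), Socs3 (1.85) and Lmna (0.95) were higher after HI than after MgSO4 at 3 h. At 12 h Gbp2 (2.34, adjusted p = 0.00371) and Cd14 (2.47, adjusted p = 0.0198) were.

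For the arrays of Experiment 2 the ratio is Cy5 over Cy3, whichever channel held MgHI and whatever the other channel held. In their Cy3 channel at 12 h, all 6 probes called against the Cy3 controls were higher. Among them were the chemokine Ccl4 (3.93, adjusted p = 0.00769) and Timp1 (2, adjusted p = 0.0337). At 12 h their ratios to control were 4.3 and 1.67 after HI, and -0.05 and 0.1 after MgSO4 alone. Whether the Cy3 channel held injured mice was not tested. At 3 h Serpina3n passed the test, with 0.91, 0.63 and 0.69, a mean of 0.74 (SE 0.11, 1.67-fold, adjusted p = 0.0155), where 7.63% of all probes were called. All 3 arrays were above 0, and each leave-one-out value kept the call. The call was lost with normexp (0.39, under 1.5-fold) and in 1 fit over the 8 groups (adjusted p = 0.427). Lcn2 was below 0 on all 3 arrays, at -0.33, -0.67 and -0.43, and its mean of -0.48 had an adjusted p of 0.0493 at a change smaller than 1.5-fold. Gfap was also below 0, at -0.14, -0.40 and -0.46 (mean -0.34, adjusted p = 0.109).

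S100a9 and the neutrophil granule gene Camp were called lower in Cy5 at 3 h, at -1.01 and -0.60. Mpo was called lower too, by at least 1.5-fold, since it was not well above background in Cy5. S100a8 stood at -0.79 (adjusted p = 0.0664). As for the HI arrays, their part in the Lcn2 value was not tested. At 12 h none of the 10 genes passed, and no probe did (0%). At an unadjusted p under 0.05, 2 of the 10 were higher, where 16.3% of all probes were. These were Serpina3n at 0.34, 0.92 and 0.66 (mean 0.64, adjusted p = 0.0874) and Gja1 at 0.09, 0.45 and 0.37 (mean 0.31, adjusted p = 0.175). Gfap stood at -0.45, 0.16 and 0.57 at 12 h, with both signs.

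Levels in single channels place the 2 channels of Experiment 3 and the 2 of Experiment 2 side by side, as log2 of the signal over the 75th percentile of its channel. For Gfap at 12 h the controls of the HI arrays lay between 0.17 and 0.22, and HI between 1.66 and 1.97. Both channels of the Experiment 2 arrays lay between those, at 0.82 to 1.35 in Cy3 and 0.90 to 1.39 in Cy5. The 12 h controls of Experiment 1 ran from 0.02 to 0.93 for Gfap and so overlapped with Experiment 2. Levels of different dyes still hold any preference of a probe for a dye. For Serpina3n at 12 h the controls lay between -3.95 and -3.22 and HI between -2.47 and -1.73, with -2.72 to -2.43 in Cy3 and -2.09 to -1.58 in Cy5 of Experiment 2.

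At 3 h the Gfap levels were closer together, at -0.01 to 0.36 in the controls and 0.29 to 0.72 after HI, and at -0.15 to 0.36 in Cy3 and -0.55 to -0.09 in Cy5 of Experiment 2. The Cy5 channel of Experiment 2 was the lowest of the 4 and did not overlap with HI. Compared within Cy5, Gfap fell by 0.80 on the log2 scale in Experiment 2 against HI (SE 0.16, 1.75-fold lower, adjusted p = 0.0272), where 6.18% of all probes were called. It was -0.80 on slide 7 and -0.81 on slide 8. The call was lost without Experiment 2 replicate 1 or 2 or HI replicate 1 or 3 (-0.83 to -0.68, adjusted p up to 0.0851), without the filter on dim probes (adjusted p = 0.0534) and in 1 fit over the 8 groups (adjusted p = 0.508). The other 2 Gfap probes gave -0.43 (adjusted p = 0.09) and -0.09 (adjusted p = 0.819). At 12 h the same comparison gave -0.71 for Gfap (adjusted p = 0.259), where no probe was called (0%).

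Lcn2 at 3 h lay between -3.42 and -3.23 in the controls of the HI arrays and between -2.56 and -2.36 after HI. Both channels of Experiment 2 were above these controls, at -2.51 to -2.08 in Cy3 and -2.83 to -2.64 in Cy5. The 3 h controls of Experiment 1 ran from -3.34 to -2.12 and overlapped with both channels. Compared within Cy3 with the controls of Experiments 1 and 3 at 3 h, Lcn2 was 0.81 higher (SE 0.26, adjusted p = 0.283), where 0.399% of all probes were called. Without Mg 3 h replicate 3 the difference was 0.97 (adjusted p = 0.0126). At 12 h, with 0.0322% of all probes called, none of the 10 passed within Cy3. Serpina3n stood 1.51 and Vim 1.37 above those controls (adjusted p = 0.122 for both), and Gfap 0.65 (adjusted p = 0.125). The Serpina3n value was 1.51 on slide 8 and 0.64 on slide 9, and with normexp it turned to -0.39. This Cy3 comparison shares the control samples of the ratios above.

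**Figure D4:**
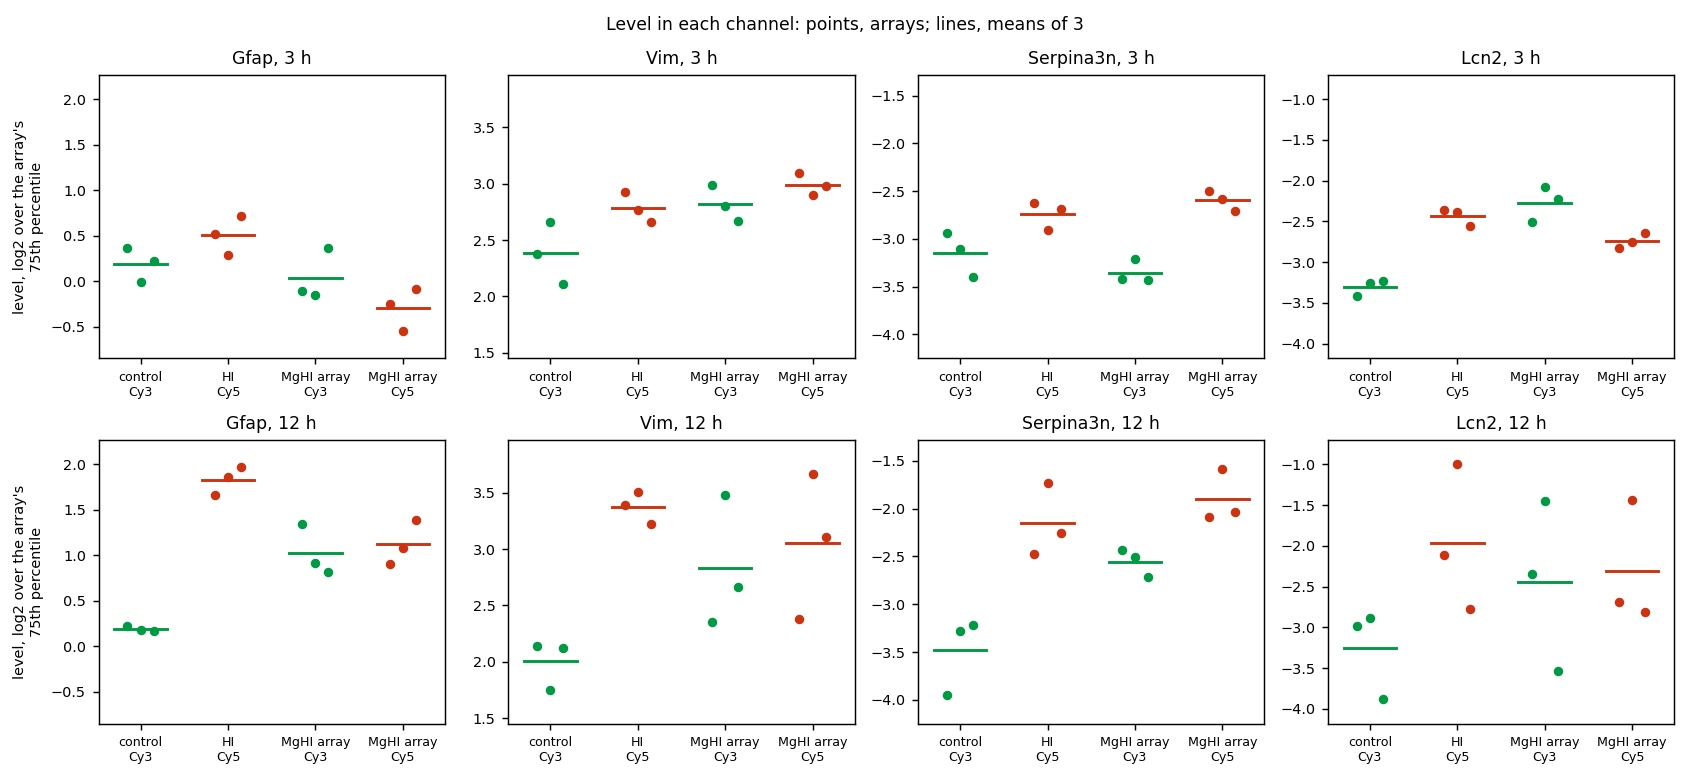
Level of Gfap, Vim, Serpina3n and Lcn2 (vertical axis, log2 of signal over the 75th percentile of the channel) in the control and HI channels of Experiment 3 and in the Cy3 and Cy5 channels of Experiment 2, at 3 h and 12 h, with points for arrays and lines for means of 3. For Gfap at 12 h the control points lie between 0.17 and 0.22, the HI points between 1.66 and 1.97, and the Experiment 2 points in between.

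Over the 25 control samples the spread of the Cy3 level of a gene was close to or above the differences described at 3 h for most of the 10. These levels were taken across slides and scan days, while the ratios were taken within arrays. The ratios spread less than the levels for the genes named next at 3 h after HI, but not in every group. At 6 h after MgSO4 the SD of the ratio was 1.5 for Serpina3n and 0.73 for Lcn2, above the SD of their control levels. At 3 h after HI the SD of the ratio was 0.18 for Gfap, 0.19 for Lcn2, 0.27 for Serpina3n and 0.25 for Vim. The SD of the control level was 0.41 for Gfap, 0.50 for Lcn2, 0.83 for Serpina3n and 1.4 for Vim, and 0.33 for Aldoc and 0.34 for Gja1. One array carried much of it: the controls of Mg 3 h replicate 3 were the highest of the 25 for Gfap (1.19), Nes (1.03), Lcn2 (-2.12) and Cd44 (-0.10), and the lowest for Vim (-5.00) and S100b (-0.14).

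Across the 31 arrays the ratios of the reactivity genes other than Cd44 were positively correlated in every pair. Gfap correlated with Vim at r = 0.76 (Spearman 0.58), with Nes at 0.66 (0.49) and with Lcn2 at 0.66 (0.63). Vim and Serpina3n correlated at r = 0.63 (Spearman 0.77), and Serpina3n and Lcn2 at 0.41 (0.20). Cd44 correlated with Gfap at 0.56 (0.40), but with Nes at 0.34 (-0.01), Vim at 0.33 (0.20), Lcn2 at 0.29 (0.42) and Serpina3n at 0.13 (0.15). Among the identity genes, Aldh1l1 correlated with Nes at 0.66 (Spearman 0.67) and with Vim at 0.63 (0.50), while S100b correlated with Nes at -0.70. Aldoc correlated with Gfap at -0.45 and Gja1 at 0.02. These arrays fall into 8 groups and share slides and scan days, so the coefficients only describe them, and the 3 HI arrays at 12 h hold the highest values of Gfap.

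The genes most like Gfap over the 31 arrays, of 13879 ranked, were Nek6, a kinase of mitosis (r = 0.90), Ubl7 (r = 0.87) and Scara3 (r = 0.87). Those most like Gja1 were Mtap, an enzyme of methionine salvage (r = 0.81), Il13ra1, a chain of the receptor for interleukin-13 (r = 0.80), and Oat, ornithine aminotransferase (r = 0.79). At 12 h after HI, where Gfap was at 1.63, Nek6 was at 0.69, Ubl7 at 0.75 and Scara3 at 0.59. None of these 3 passed the test there, with adjusted p of 0.0773, 0.0861 and 0.0798.

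**Figure D5:**
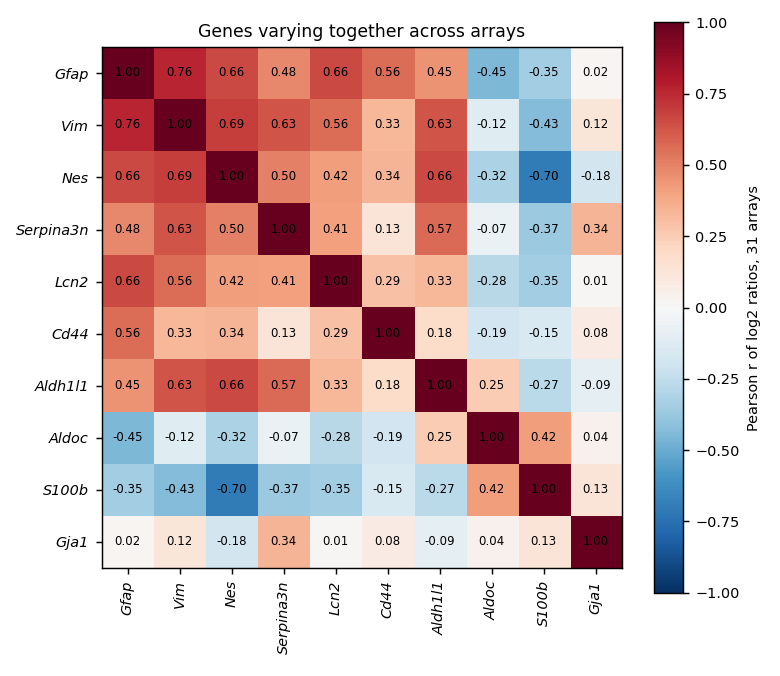
Pearson correlation of the log2 ratios of each pair of the 10 genes over the 31 arrays (colour scale), with genes on both axes. Gfap and Vim correlate at 0.76, and Gfap and Gja1 at 0.02.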

How the data were processed

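RNA of forebrain pools was hybridised to 31 two-color Agilent arrays. The deposited intensities are processed signals that the authors obtained in Agilent Feature Extraction (version 10.5.1.1), after background subtraction, detrending and dye normalisation. The deposited series table holds log10 ratios of Cy5 to Cy3 and was used as an alternative.

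Log2 ratios of Cy5 to Cy3 were computed from the processed intensities, with outlier spots left out and spots of a probe averaged. RefSeq accessions gave 27427 of 39429 probes (69.6%) a single symbol, and a gene is its brightest probe. Probes well above background in either dye on at least 66.7% of a group's arrays were tested with limma 3.58.1 in R 4.3.3, with Benjamini-Hochberg adjustment over all of them. Differences of ratios needed this in both groups. Single-channel comparisons read that channel alone and took a probe that passed in either group, so a probe could enter through the group where it was high. A call needed an adjusted p under 0.05 and at least a 1.5-fold change. Groups came from the array titles, which for Experiment 2 name another reference than the methods. The members and lists were chosen with earlier results of these data known. All 10 genes are named, the called genes of each list (up to 4), and the 3 genes most like Gfap and Gja1. Saturation marked no spot (0), and the number of arrays limits the precision. Replicate numbers of HI and MgHI arrays at one time share a slide, and their Cy5 deviations correlated at 0.23 to 0.52 at 3 h and 0.27 to 0.44 at 12 h. The reported fits did not use this pairing, and a fit with the replicate number as a block changed no call there.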

Additional observations from a re-analysis of the deposited data

Results flagged for a closer look

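Of 120 sets of values tested for a value far from the rest of its group, 10 held one, and chance gives about 1 in 20 such sets. Mg 3 h replicate 3 held 3 of them: the Vim ratio of -1.27 (others -0.24 to -0.11), the Vim level in Cy5 of -6.26 (others 1.12 to 2.54) and the Gfap level in Cy3 of 1.19 (others 0.62 to 0.69). Among the other ratios, S100b on Mg 3 h replicate 1 was 0.09 (others -0.11 to -0.08), and Gfap on Mg 12 h replicate 1 was 0.21 (others -0.27 to -0.19). At 6 h the Cy3 levels of Gfap on replicate 5 (-0.84), of Nes on replicate 4 (0.27) and of Lcn2 on replicate 7 (-4.60) stood apart. The Cy3 level of Aldh1l1 on Mg 24 h replicate 1 was 2.08 (others 2.68 to 2.79), and the Cy5 level of Aldoc on Mg 12 h replicate 3 was 6.70 (others 6.11 to 6.20).

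HI and MgSO4 differed from each other, by a test of the difference, for Lcn2 at 3 h (0.78, adjusted p = 0.0353) and for Gfap at 12 h (1.75, adjusted p = 0.0198).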

How the results depend on the processing

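Across the alternatives no called value of the 10 genes changed sign. Of the single values, 2548 kept their side of the test, 52 passed it only under an alternative and 31 lost it. The counts below are those of the 10 genes called. With normexp background correction and loess the count fell from 1 to 0 for HI at 3 h, for Cy5 over Cy3 of Experiment 2 at 3 h and for HI minus MgSO4 at 3 h, and it was 2 for HI at 12 h, 1 for HI at 12 h minus 3 h and 2 for HI minus MgSO4 at 12 h. Without the filter on dim probes it fell from 1 to 0 for HI at 3 h, for HI minus MgSO4 at 3 h and 12 h and for Cy5 of Experiment 2 against HI at 3 h. A stricter filter gave 3 for HI at 12 h and 1 for 12 h minus 3 h. The methods' t-test with Benjamini-Hochberg adjustment gave 0 for HI at 3 h and for Experiment 2 at 3 h, and without adjustment 4 for HI at 12 h. Without a minimum fold Experiment 2 at 3 h had 2. In 1 fit over the 8 groups the counts were 6 for HI at 12 h, 1 for 12 h minus 3 h, 0 for HI minus MgSO4 at 3 h and 3 at 12 h, 0 for Experiment 2 at 3 h, 1 for Cy3 of Experiment 2 against controls at 12 h and 0 for Cy5 against HI at 3 h. In 1 fit over the HI and MgHI groups they were 7 for HI at 12 h (where 9.81% of probes were called), 2 for 12 h minus 3 h and 1 for Experiment 2 at 12 h. The probes called over the whole array ranged from 0 to 2698 for HI at 3 h and from 0 to 1861 for HI at 12 h. Apart from the 9.81% above, the share of all probes called in each fit was not set beside these counts. They therefore do not describe the 10 genes alone.

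Leaving out 1 array at a time gave 0 to 1 for HI at 3 h, 0 to 7 for HI at 12 h (4 without replicate 1, 7 without replicate 3), 0 to 3 for 12 h minus 3 h, 0 to 1 for HI minus MgSO4 at 3 h and at 12 h, 0 to 1 for Cy3 of Experiment 2 against controls at 3 h and 0 to 1 for Cy5 against HI at 3 h. These counts too stand without the share of all probes called in the same fit. At 6 h of MgSO4 the count was 1 without replicates 3 and 7 together. Scan day as a random block gave 0 for HI minus MgSO4 at 12 h, and slide as a random block gave 1 for Cy3 of Experiment 2 against controls at 12 h. With the controls of the HI arrays alone and slide as a fixed block, Cy3 of Experiment 2 against controls at 3 h had 1. A slide block could not be fitted for single groups of 3 HI or MgHI arrays or for HI minus MgSO4 at 12 h. The replicate block gave 0 in place of 1 for HI minus MgSO4 at 3 h (Lcn2 0.73, adjusted p = 0.146) and at 12 h (Gfap 1.72, adjusted p = 0.607), where the arrays share only a number: same-numbered arrays correlated at 0.04 to 0.17 and -0.28 to -0.09, and not every array correlated best with its own number. The replicate block changed no other call. Normexp lowered the Cy5 level of Gfap after HI at 12 h from 1.83 to 1.54. It moved the correlation of Gfap and Vim from 0.76 to 0.82, and centring on the median moved it to 0.80. The causes were not tested. Signal over background limits Serpina3n most, and 3 arrays a group limit every HI value.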
